A study of Mus musculus with 6 samples.

Results

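The lysyl oxidases and the genes of elastic microfibrils were followed as 10 transcripts, matched by symbol in the deposited tables: the enzymes Lox, Loxl1, Loxl2, Loxl3 and Loxl4, and the fibre genes Eln, Fbn1, Fbn2, Fbln5 and Mfap5. All 10 were present among 24346 listed genes, and all 10 passed the filter on low values, which 18715 genes passed. The tissue was mouse condylar cartilage, the growth cartilage on the jaw side of the temporomandibular joint, dissected under a microscope. Total RNA was the starting material, from which cDNA was made and sequenced. The control group (3 libraries) carries the label fl/fl, the usual notation for a gene flanked by recombinase sites. The mutant group (3 libraries) comes from mice with Ihh, the gene of the signalling ligand Indian hedgehog, deleted in craniofacial neural crest cells, per the title of the series. The submitters describe a parallel check of mutant samples by the expression of Ihh, of the Cre recombinase and of the Tomato reporter, of which Ihh alone is given here. The sources used here name no age, strain, Cre driver or number of animals behind a library, so p-values measure the spread between these libraries, which may in part be technical.

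Lysyl oxidases are secreted copper enzymes that convert lysines of collagens and of elastin into reactive aldehydes, from which the covalent cross-links of the matrix form. Elastic fibres are laid down on microfibrils, whose backbone is made of fibrillins. Fibulins and small microfibril-associated glycoproteins bind to this scaffold and to elastin. In skeletal tissue the same enzymes cross-link the collagens of cartilage, bone, tendon and perichondrium, while microfibrils also bind latent growth factors of the TGF-beta family.

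Both sides of this reaction can be read in the coding sequences, taken from GENCODE M21 transcripts of the build GRCm38 (mm10). The elastin gene Eln, on the minus strand, codes for 38 lysines, and 12 pairs of lysines are parted by 2 or 3 alanines, the arrangement from which elastin cross-links form. A stretch of 45 bases from one such cross-link domain (chr5:134713996-134714040, minus strand, within 1 exon, codons 525 to 539 of the longest transcript) shows why elastin is a substrate, with its 2 lysine codons in capitals and every other codon coding for alanine.
Eln: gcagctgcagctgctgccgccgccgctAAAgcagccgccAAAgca

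The histidine-rich copper site, where the catalytic metal is bound, is shown for 4 of the enzymes to make their kinship visible. Capitals mark the 31 of 51 bases that Loxl1, Loxl2, Loxl3 and Loxl4 have in common. Loxl2 and Loxl4 differed at 7 of the 51 bases and Loxl1 and Loxl2 at 15. Each stretch crosses an exon junction, so the coordinates of its ends span an intron: chr9:58293711-58294390 (minus strand) for Loxl1, chr14:69682307-69689046 (plus strand) for Loxl2, chr6:83049986-83050134 (plus strand) for Loxl3 and chr19:42598798-42599908 (minus strand) for Loxl4.
Loxl1: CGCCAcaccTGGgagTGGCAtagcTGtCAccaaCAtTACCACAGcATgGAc
Loxl2: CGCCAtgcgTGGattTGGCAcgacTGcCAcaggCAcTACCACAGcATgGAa
Loxl3: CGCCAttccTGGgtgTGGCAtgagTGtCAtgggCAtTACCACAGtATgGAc
Loxl4: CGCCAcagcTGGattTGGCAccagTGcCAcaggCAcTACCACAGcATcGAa

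In spite of this kinship, the longest stretch without a mismatch shared by transcripts of any 2 of the 5 enzymes was 32 bases (Lox and Loxl1), and that shared by Fbn1 and Fbn2 was 26 bases. The genes of Loxl3 and Fbn1 overlap exons of protein-coding genes on the opposite strand (Htra2 over 369 bases and Gm9913 over 2442 bases), and Loxl2 and Eln overlap antisense transcripts (244 and 212 bases). These libraries do not keep the strand, so reads from such exons cannot be told apart.

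Values are in FPKM, a fragment number divided by transcript length and by the library's total, so that levels of different genes can be set beside each other. They are given in the order of libraries 1, 2 and 3 of a group. Low FPKM values were spaced in whole steps, which gave scaling totals, relative to control 1, between 0.993 (control 2) and 1.33 (control 3). Taking the 3297 bases of the only annotated Loxl1 transcript as its length, these correspond to totals of 1360000 to 1820000 fragments per library, as an estimate. Olfactory receptor genes, which most tissues keep silent, had a 90th percentile of 6.49 to 8.69 FPKM, and values in or below that range are hard to tell from background. Ihh stood at 3.73, 2.51 and 3.74 FPKM in controls and at 2.18, 2.33 and 2.66 FPKM in mutants, below that percentile in every library (limma adjusted p = 0.724), so these values do not check the deletion. Xist, which is transcribed from the inactive X chromosome of females, stood at 29.5 and 29.2 FPKM in controls 1 and 2. It was 0.608 FPKM in control 3 and 0.577 to 0.984 FPKM in the mutants. Eif2s3y, a gene of the Y chromosome, stood at 0.89, 0 and 42.1 FPKM in controls and at 47.3, 47.4 and 38.4 FPKM in mutants. Sex was thus not balanced between the groups, and of the controls only control 3 was like the mutants in both genes. Pearson correlations of log2(FPKM + 1) over the genes tested were 0.896 to 0.905 between controls, 0.898 to 0.912 between mutants and 0.858 to 0.896 across groups.

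The 5 enzymes had lower mean levels in mutant cartilage, Lox and Loxl2 by the widest margin on the log2 scale, and 4 of the 5 fibre genes had higher ones, Eln by the widest on the log2 scale, but none of the 10 members passed the test over all genes. With limma (a linear model with moderated variances on log2(FPKM + 1), Benjamini-Hochberg adjustment over all genes), 0 of 10 members had an adjusted p below 0.05, where 1.24% of all genes tested did. At an unadjusted p below 0.05 there were 6 of 10 members (Eln, Fbn1, Fbln5 and Mfap5 higher, Lox and Loxl2 lower), beside 14.1% of all genes. The 3 mutant values did not overlap the 3 control values in 5 of 10 members, beside 19.2% of all genes. Among these, Eln, Fbn1, Fbln5 and Mfap5 lay above all controls, beside 9.77% of genes, and Loxl2 lay below all controls, beside 9.40%. The members were chosen with earlier results of these data known, so none of these counts is a test of the set. The median log2 fold change, mutant minus control, was -0.55 over the 5 enzymes and 0.70 over the 5 fibre genes, while over all genes tested it was 8e-04.

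**Figure D1:**
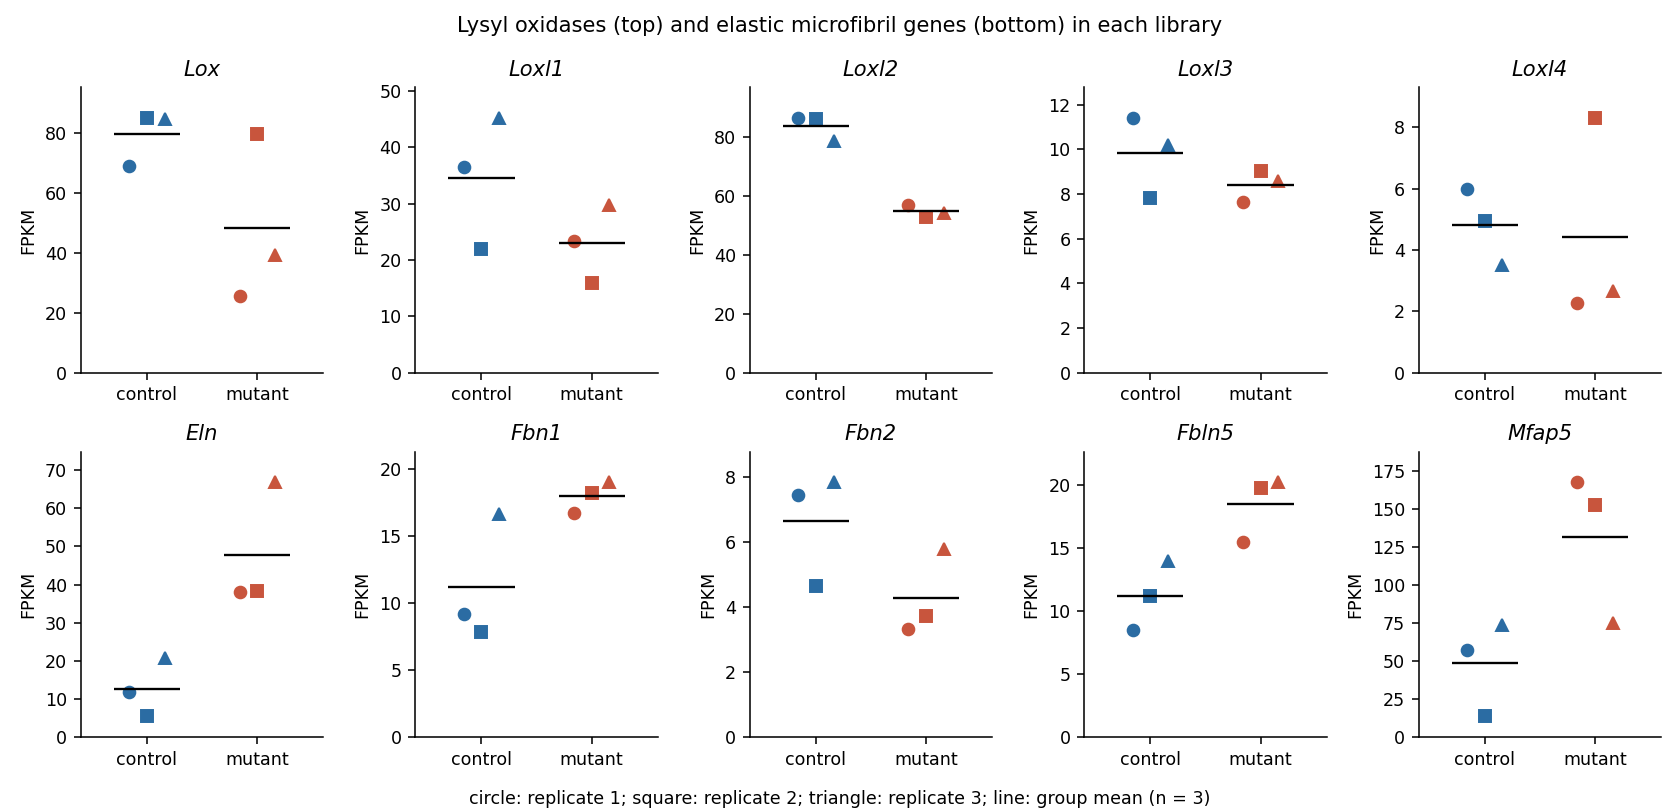
FPKM of each of the 10 genes in the 3 control and 3 mutant libraries, with a line at the group mean. Loxl2 is lower in all mutants, Eln, Fbn1, Fbln5 and Mfap5 are higher in all mutants, and mutant 2 stands among the controls for Lox.

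Levels in control cartilage spanned more than an order of magnitude. Loxl2 (83.7 ± 4.38 FPKM, mean ± SD, n = 3 here and below) and Lox (79.6 ± 9.27 FPKM) were the most abundant, and their ranges overlapped. Next came Mfap5 (48.4 ± 30.9 FPKM), which overlapped Lox above and Loxl1 (34.5 ± 11.8 FPKM) below. Eln (12.7 ± 7.68 FPKM), Fbln5 (11.2 ± 2.77 FPKM), Fbn1 (11.2 ± 4.73 FPKM) and Loxl3 (9.82 ± 1.82 FPKM) lay below Loxl1 and overlapped each other. At the bottom by mean stood Fbn2 (6.64 ± 1.75 FPKM) and Loxl4 (4.81 ± 1.25 FPKM), whose ranges overlapped. The lowest Eln value (5.49 FPKM, control 2) lay within both of these ranges. The highest Fbn2 value (7.84 FPKM) lay just above the lowest Fbn1 value (7.80 FPKM) and came close to the lowest Loxl3 value. In mutants Mfap5 came first (131.5 ± 49.8 FPKM) and Eln (47.8 ± 16.5 FPKM) stood beside Lox (48.2 ± 28.1 FPKM).

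Loxl2, which cross-links fibrillar and basement membrane collagens, had the tightest values of the enzymes. It stood at 86.5, 85.9 and 78.6 FPKM in controls and at 56.9, 52.9 and 54.3 FPKM in mutants. Every mutant lay below every control, at 0.654 of the control mean, with a log2 fold change of -0.60 ± 0.16 (SE, limma adjusted p = 0.121, n = 3 per group). The log2 fold change stayed between -0.68 and -0.49 over 14 alternative settings, none of which gave an adjusted p below 0.0816. The gene lies on chromosome 14 from 69609068 to 69695834, plus strand.

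Lox, the founding enzyme of the family, which acts on fibrillar collagen and elastin, stood at 68.9, 85.1 and 84.8 FPKM in controls and at 25.6, 79.6 and 39.3 FPKM in mutants. Mutants 1 and 3 lay below all controls, while mutant 2 lay among them. The log2 fold change was -0.86 ± 0.36 (SE, limma adjusted p = 0.319) and moved to -1.29 without mutant 2 and to -0.49 without mutant 1. Loxl4, an enzyme with scavenger receptor domains as in Loxl2 and Loxl3, showed the same library apart, with 5.99, 4.96 and 3.50 FPKM for the controls and 2.27, 8.31 and 2.65 FPKM for the mutants. Mutant 2 had the highest Loxl4 value of all 6 libraries and the other mutants the lowest, and the log2 fold change was -0.25 ± 0.42 (SE, limma adjusted p = 0.867), or -0.73 without mutant 2 and 0.03 without mutant 1. Loxl4 was below the olfactory receptor percentile in 5 of 6 libraries. Mutant 2 also had the highest sum of 5 osteoblast markers (Bglap, Ibsp, Dmp1, Sp7 and Phex). It was 1740 FPKM against 757 in mutant 1, 583 in mutant 3 and 413 to 1045 in controls. Most of the sum in mutant 2 was Ibsp (1246 FPKM), and Bglap and Dmp1 were also highest in that library. Sp7 (35.2 FPKM) and Phex (8.03 FPKM) of mutant 2 lay within the range of the controls. The part of bone cells in these values was not tested.

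Loxl1, which serves the renewal of elastic fibres, stood at 36.4, 21.9 and 45.2 FPKM in controls and at 23.4, 15.9 and 29.7 FPKM in mutants. The groups overlapped through control 2, and the log2 fold change was -0.55 ± 0.31 (SE, limma adjusted p = 0.508). It ranged from -0.32 without mutant 2 to -0.84 without control 2. Loxl3, which mice need for a closed palate and a normal spine, stood at 11.4, 7.84 and 10.2 FPKM in controls and at 7.62, 9.05 and 8.59 FPKM in mutants. These groups overlapped as well, with a log2 fold change of -0.19 ± 0.23 (SE, limma adjusted p = 0.806). The Loxl3 values of control 2 and mutant 1 lay below the olfactory receptor percentile of their libraries. Loxl1 lies on chromosome 9 from 58287738 to 58313186 (minus strand), Loxl3 on chromosome 6 from 83034173 to 83052562 (plus strand) and Loxl4 on chromosome 19 from 42593982 to 42612813 (minus strand).

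Summed over the 5 enzymes, lysyl oxidase transcript came to 209, 206 and 222 FPKM in controls and to 116, 166 and 135 FPKM in mutants. Every mutant sum lay below every control sum (exact permutation test, two-sided, p = 0.1, the smallest that 3 against 3 libraries allow). Of single genes tested, 9.40% lay below all controls in every mutant. Lox and Loxl2 made up most of the sum, and the members were chosen with earlier results known, so this is no test of the set. Loxl2 gave 41.3%, 41.8% and 35.3% of the sum in controls, overlapping the 49.1%, 31.9% and 40.4% of the mutants (exact permutation p = 1). Lox gave 32.9% to 41.4% in controls and 22.1% to 48.0% in mutants. Loxl3 alone had a share that did not overlap, with 3.81% to 5.45% in controls and 5.46% to 6.58% in mutants (exact permutation p = 0.1), parted by a gap far smaller than the spread within either group.

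**Figure D2:**
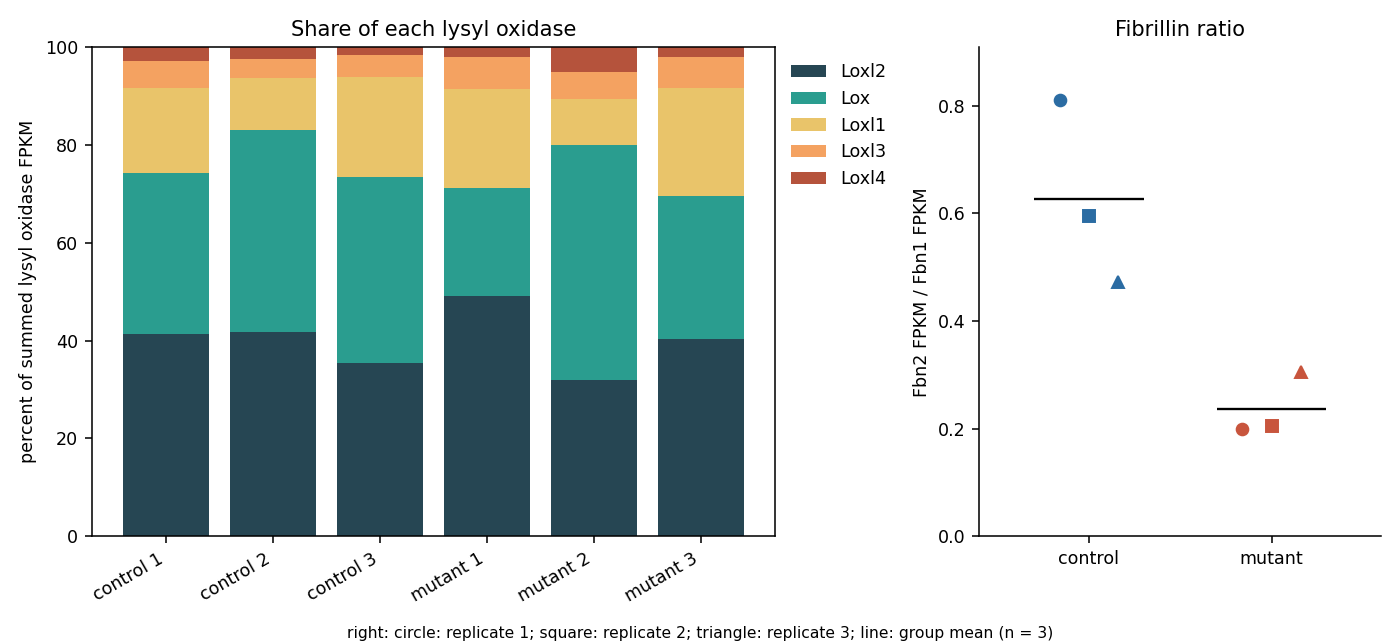
Left, the percent of summed lysyl oxidase FPKM that each enzyme gave in each library, and right, Fbn2 FPKM divided by Fbn1 FPKM with the group mean. Loxl2 and Lox together make up most of the sum in all 6 libraries. The fibrillin ratio is lower in all mutants (0.199 to 0.304) than in the controls (0.472 to 0.811). Fbn2 itself is below the olfactory receptor percentile in 5 of the 6 libraries.

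Elastin showed the widest difference of the members on the log2 scale, while in FPKM that of Mfap5 was wider. Eln codes for the rubber-like core of elastic fibres. It stood at 11.9, 5.49 and 20.8 FPKM in controls and at 38.03, 38.4 and 66.9 FPKM in mutants. The value of control 2 lay below the olfactory receptor percentile of that library (8.56 FPKM). All mutants lay above all controls, with a ratio of means of 3.76 and a log2 fold change of 1.95 ± 0.42 (SE, limma adjusted p = 0.0632). The value passed in 2 of 14 alternatives, namely with a filter at 5 FPKM (adjusted p = 0.038) and without control 3 (log2 fold change 2.37, adjusted p = 0.0386), in a range of adjusted p from 0.038 to 0.865. Control 3, the control without Xist, had the highest Eln of the controls. Leaving it out set only the controls with high Xist against mutants with low Xist. In that setting sex and group cannot be told apart. Against control 3 alone the log2 fold change was 1.11 (limma adjusted p = 0.436, taking the lone control to vary like the mutants), so that the size of the difference depended on which controls were used. The Eln gene spans 134702593 to 134747323 of chromosome 5, minus strand.

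Mfap5, which codes for a small glycoprotein attached to microfibrils, stood at 57.3, 13.98 and 73.9 FPKM in controls and at 167.6, 152.3 and 74.7 FPKM in mutants. The groups were parted only by the narrow gap between control 3 and mutant 3, and the log2 fold change was 1.63 ± 0.58 (SE, limma adjusted p = 0.245), or 0.92 without control 2. Fbln5, the fibulin that ties elastin and Loxl1 to microfibrils, stood at 8.44, 11.2 and 13.97 FPKM in controls and at 15.4, 19.8 and 20.2 FPKM in mutants. Every mutant was above every control (log2 fold change 0.69 ± 0.24, limma adjusted p = 0.225). Against control 3 alone, these log2 fold changes were 0.74 for Mfap5 and 0.37 for Fbln5. Mfap5 lies on chromosome 6 from 122505845 to 122529290 (plus strand) and Fbln5 on chromosome 12 from 101746565 to 101819055 (minus strand).

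The 2 fibrillin genes stood on opposite sides. Fbn1, the main fibrillin of postnatal tissue, stood at 9.19, 7.80 and 16.6 FPKM in controls and at 16.7, 18.2 and 18.995 FPKM in mutants. Controls 1 and 2 were low, the latter below the olfactory receptor percentile of its library, while control 3 lay just below mutant 1. The log2 fold change was 0.70 ± 0.28 (SE, limma adjusted p = 0.295) or, against control 3 alone, 0.10. Fbn2, the fibrillin made mostly before birth, stood at 7.45, 4.64 and 7.84 FPKM in controls and at 3.32, 3.72 and 5.78 FPKM in mutants. The groups overlapped through control 2 and mutant 3 (log2 fold change -0.53 ± 0.30, limma adjusted p = 0.507), and 5 of the 6 values were below the olfactory receptor percentile. Fbn1 lies on chromosome 2 from 125300594 to 125507993, minus strand.

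The ratio of Fbn2 to Fbn1 within a library, which no scaling between libraries can alter, was 0.811, 0.594 and 0.472 in controls and only 0.199, 0.205 and 0.304 in mutants. All mutants lay below all controls, control 3 included. On a log2 scale the mean was -0.71 ± 0.39 in controls and -2.11 ± 0.34 in mutants, a difference of -1.40 (exact permutation test, two-sided, p = 0.1, the smallest possible). Leaving out 1 library at a time kept the difference between -1.59 and -1.19. Fbn2 lay below the olfactory receptor percentile in 5 libraries, all 3 mutants among them, and Fbn1 in 1 control. The ratio thus rests largely on values that are hard to tell from background. The share of other gene pairs with ratios that do not overlap was not counted.

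Whole fragments were recovered for 9 of 10 members, as the smallest whole numbers that matched all 6 values within 0.05 of a fragment (the largest deviation was 0.023), and no set of numbers up to 1000 matched Lox. Eln rested on 61, 28 and 142 fragments in controls and on 195, 237 and 362 in mutants. Loxl4 rested on 45, 37 and 35 fragments in controls and on 17, 75 and 21 in mutants. After scaling, the mutant to control ratio of pooled fragments was 3.51 for Eln (exact 95% interval 3.03 to 4.08), 0.656 for Loxl2 (0.611 to 0.705), 0.631 for Fbn2 (0.528 to 0.753) and 0.987 for Loxl4 (0.755 to 1.29). Of the 9 intervals 7 did not contain 1, those of Loxl3 and Loxl4 being the others. The share of all genes with such an interval was not counted, so the 7 are no result about the members. These intervals cover counting error only, and the spread between libraries was mostly larger. Eln had a coefficient of variation of 60.4% in controls, where counting gives 14.04%, and Loxl4 had 76.7% in mutants, where counting gives 20.0%. The observed spread was above counting error in both groups for 7 of the 9 genes. In Loxl2 it was 5.23% in controls and 3.73% in mutants, near the 3.91% and 4.87% of counting.

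**Figure D3:**
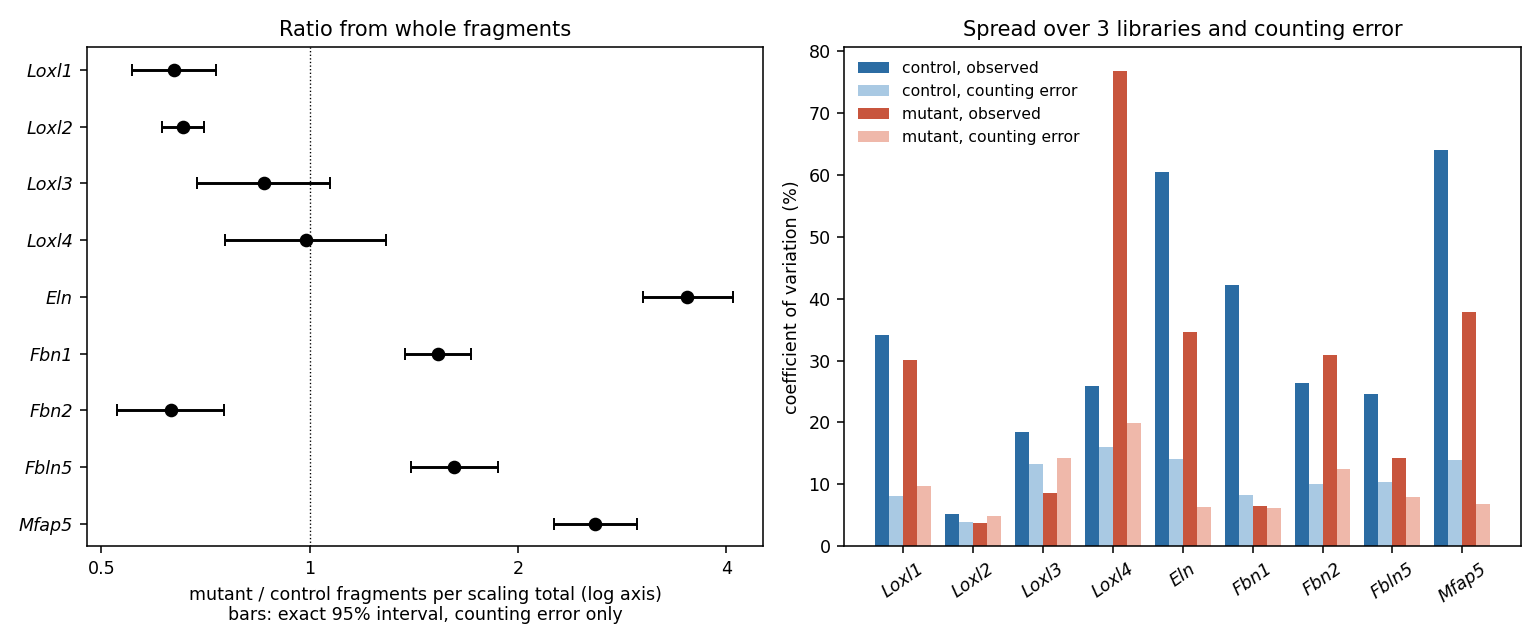
Left, the mutant to control ratio of fragments per scaling total on a log axis with exact 95% intervals for counting error, for the 9 genes with whole fragments. Right, the coefficient of variation over 3 libraries beside that of counting alone. Eln, Fbn1, Fbln5 and Mfap5 have intervals above 1 and Loxl1, Loxl2 and Fbn2 below 1, while the spread of Eln and Mfap5 in controls is several times their counting error.

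Of 38 other genes of elastic fibres, microfibrils and cross-linking, all of which were tested, 1 fell and 0 rose with the adjustment over all genes, beside the 1.24% of all genes tested. The median log2 fold change of the 38 was -0.07. Postn, a matricellular gene whose protein promotes the activation of Lox by the protease Bmp1, fell from 834, 978 and 1068 FPKM to 204, 384 and 211 FPKM (log2 fold change -1.90 ± 0.26, limma adjusted p = 0.0189). Its groups did not overlap, but it did not pass without control 1 (adjusted p = 0.0767), control 2 (0.0776) or mutant 1 (0.0833). With each library left out in turn its log2 fold change was -2.20 to -1.74. It did not pass with either added covariate, where its log2 fold change was -2.09 (Xist) and -2.74 (muscle mean). Against control 3 alone the log2 fold change was -2.06, from nearly the same comparison as with Xist, which was high in controls 1 and 2 only. Bmp1 itself, which cuts procollagen and the precursor of Lox, stood at 81.6, 72.8 and 85.2 FPKM in controls. In mutants it stood at 51.4, 92.7 and 52.4 FPKM, where mutant 2 was again the high one. Bmp1 was chosen for mention after its values were seen.

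Among the related genes above the control mean, those with the smallest p were Fbln2, a fibulin of microfibrils and basement membranes (28.1 ± 6.15 to 56.5 ± 12.7 FPKM, limma adjusted p = 0.0973), and Ltbp4, a latent TGF-beta binding protein that elastic fibre assembly requires (23.8 ± 11.6 to 41.4 ± 5.29 FPKM, adjusted p = 0.23). Adamtsl4, a microfibril-binding protein, had 14.4 ± 1.98 and 25.2 ± 8.14 FPKM, and Pcolce2, an enhancer of procollagen processing, had 7.92 ± 2.13 and 12.5 ± 1.43 FPKM. On the lower side, after Postn, came Emilin1, a glycoprotein between elastin and microfibrils (42.1 ± 7.02 to 23.6 ± 6.45 FPKM, adjusted p = 0.161), Efemp1, the gene of fibulin 3 (28.1 ± 8.64 to 15.995 ± 5.75 FPKM, adjusted p = 0.267), and Slc31a1, the copper importer (21.4 ± 3.79 to 15.1 ± 1.83 FPKM, adjusted p = 0.367). Elastic fibre genes thus lay on both sides. Ltbp4 passed as well without control 3, a setting that left only the controls with high Xist.

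**Figure D4:**
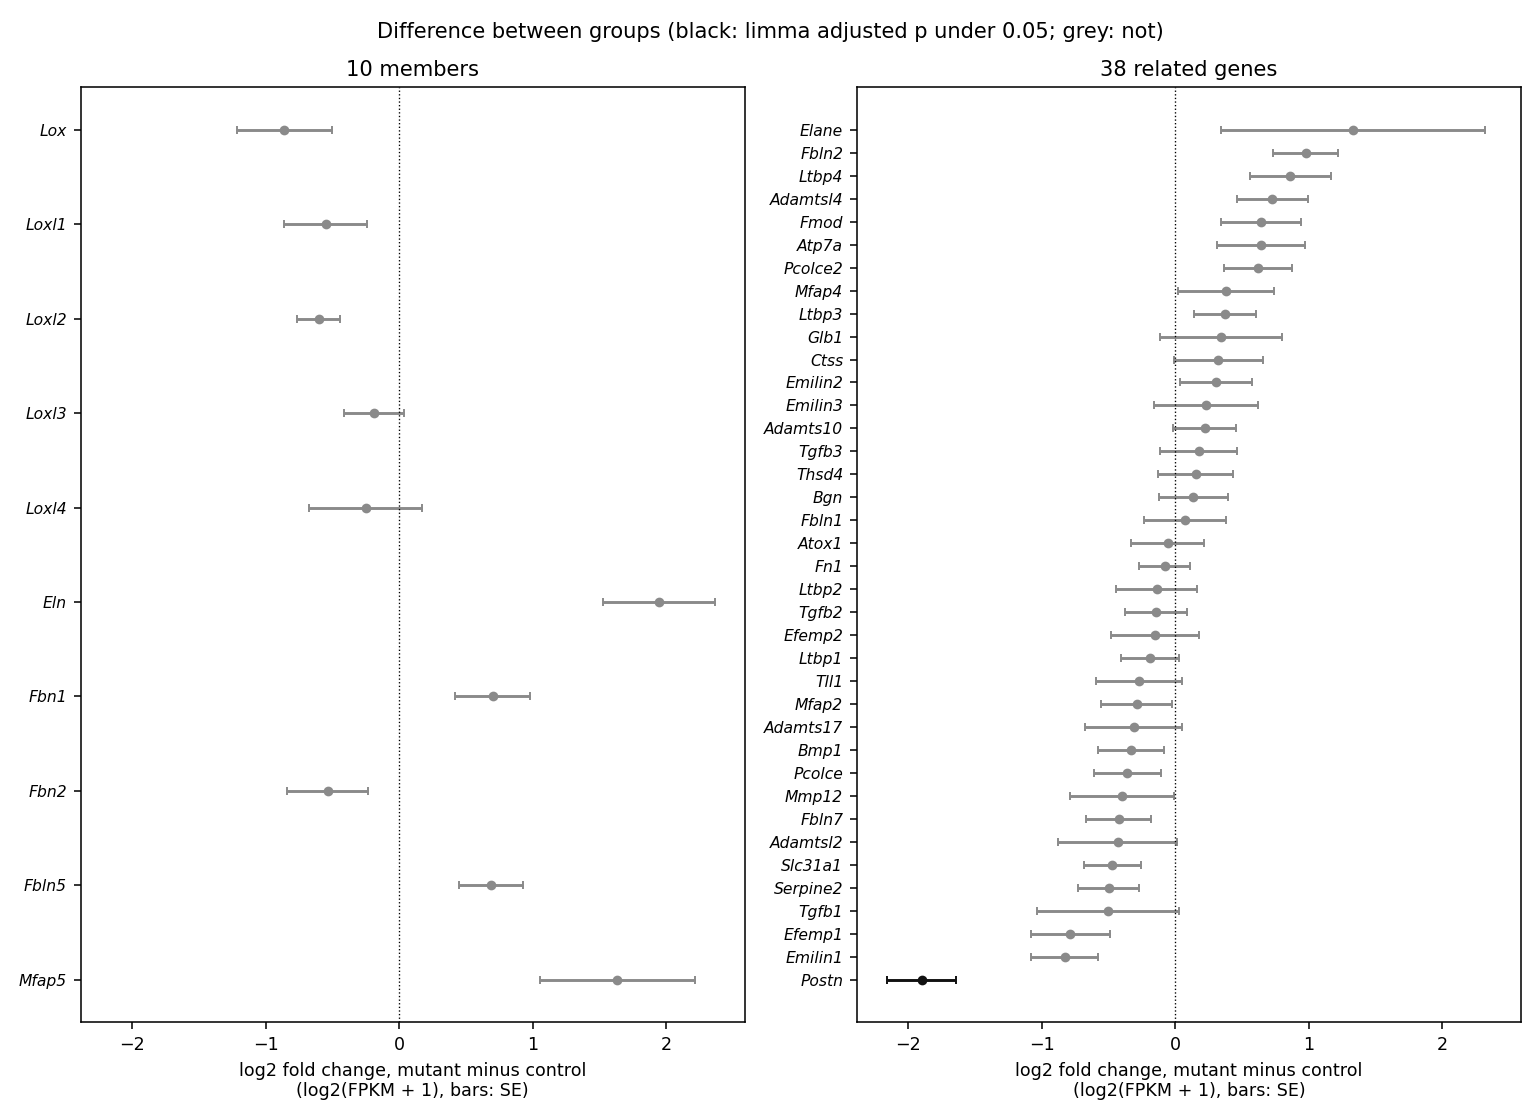
Log2 fold change, mutant minus control, with its standard error for the 10 members and for 38 related genes, black where the limma adjusted p is below 0.05. The 5 enzymes and Fbn2 have negative values, the other 4 fibre genes positive ones, and Postn at -1.90 is the only black point.

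The genes whose log2(FPKM + 1) followed Eln most closely over the 6 libraries, among 11237 others with a mean of at least 5 FPKM, were Col4a2 (Pearson r = 0.998), Rmnd5b (0.992), Hoxd8 (0.987), Rhoj (0.987) and Stc1 (0.985). Col4a2, a collagen of basement membranes, stood at 24.8, 20.5 and 31.3 FPKM in controls and at 38.4, 38.8 and 47.6 FPKM in mutants. Rhoj, a small GTPase of endothelial cells, ranged from 16.3 to 28.7 FPKM over the controls and from 41.5 to 58.6 FPKM over the mutants. The points share their libraries and the group difference, so these correlations only describe a common order of the 6 libraries.

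Markers of other cell types also differed between the groups. The summed level of 7 endothelial markers was 68.3 to 113 FPKM in controls and 192 to 218 FPKM in mutants, with all 7 markers higher in every mutant than in any control and 2 of them, Pecam1 and Tie1, called higher. The sum of 8 skeletal muscle markers was 3023 to 7304 FPKM in controls and 20599, 24306 and 13108 FPKM in mutants 1, 2 and 3, with 5 of 8 called higher. Over all genes tested, 9.77% lay above all controls in every mutant and 1.24% were called in either direction. These shares also stand beside the counts of the marker lists below, and all markers were chosen with earlier results of these data known. Mfap5 was highest in mutants 1 and 2, where the muscle sum was highest, and with the mean of the muscle markers as a covariate its log2 fold change became -1.47 (limma adjusted p = 0.818). Eln was highest in mutant 3, where the muscle sum was lowest of the mutants, and with the same covariate its value was 1.37 (adjusted p = 0.865). The covariate was the mean of log2(FPKM + 1) over the muscle markers, 7.3 to 8.26 in controls and 9.19 to 10.4 in mutants. As it did not overlap between the groups, these fits can hardly part it from the group, and no conclusion is drawn from them. None of the markers of these 2 lists was at 0 in any library, and their part in the results was not tested.

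Smooth muscle and pericytes, which surround vessels and of which smooth muscle makes elastin in vessel walls, were followed by 8 markers that did not move together. Over the 6 libraries, the contractile genes Myh11 (2.27 to 4.24 FPKM) and Cnn1 (0.394 to 1.11 FPKM) lay below the olfactory receptor percentile, while Tagln (15.2 to 22.5 FPKM) lay above it with overlapping groups. Of the 7 tested, 1 fell, Acta2, from 123 ± 4.67 to 58.8 ± 6.63 FPKM (limma adjusted p = 0.0296), and Cspg4 (27.3 ± 5.24 and 14.4 ± 3.39 FPKM) was also below all controls in every mutant. Rgs5 (18.4 ± 4.96 and 29.9 ± 3.49 FPKM), Pdgfrb (11.0073 ± 3.67 and 17.3 ± 2.02 FPKM) and Mcam (15.2 ± 0.994 and 26.3 ± 4.19 FPKM) were above all controls in every mutant, as Eln was, without passing the test. The median log2 fold change of the 7 was 0.09, although the summed level of the 8, in which Acta2 weighs most, was 210 to 233 FPKM in controls and 160 to 186 FPKM in mutants. The part of these cells in the Eln values was not tested. Cartilage itself was represented by 9 chondrocyte markers, whose sum was 322 to 387 FPKM in controls and 166 to 212 FPKM in mutants, with Acan, Col9a1 and Hapln1 (3 of 9) called lower and Matn1 at 0 in mutant 3. Comp, of the same list, was above all controls in every mutant (14.9 ± 6.91 and 50.8 ± 36.4 FPKM, limma adjusted p = 0.173). In dissected tissue, fewer cells of a type and less RNA per cell cannot be told apart. Of 5 fibrous layer and tendon markers 1 rose, Prg4, the lubricin gene of joint surfaces, from 12.1 ± 2.21 to 53.6 ± 4.86 FPKM (limma adjusted p = 0.00943). The sums of these 5 (1799 to 2692 and 1777 to 4009 FPKM), most of which was Col1a1, and of 5 macrophage markers (39.5 to 74.7 and 27.3 to 91.3 FPKM) overlapped between controls and mutants, as did those of 4 adipocyte markers (11.1 to 27.7 and 12.3 to 26.5 FPKM).

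**Figure D5:**
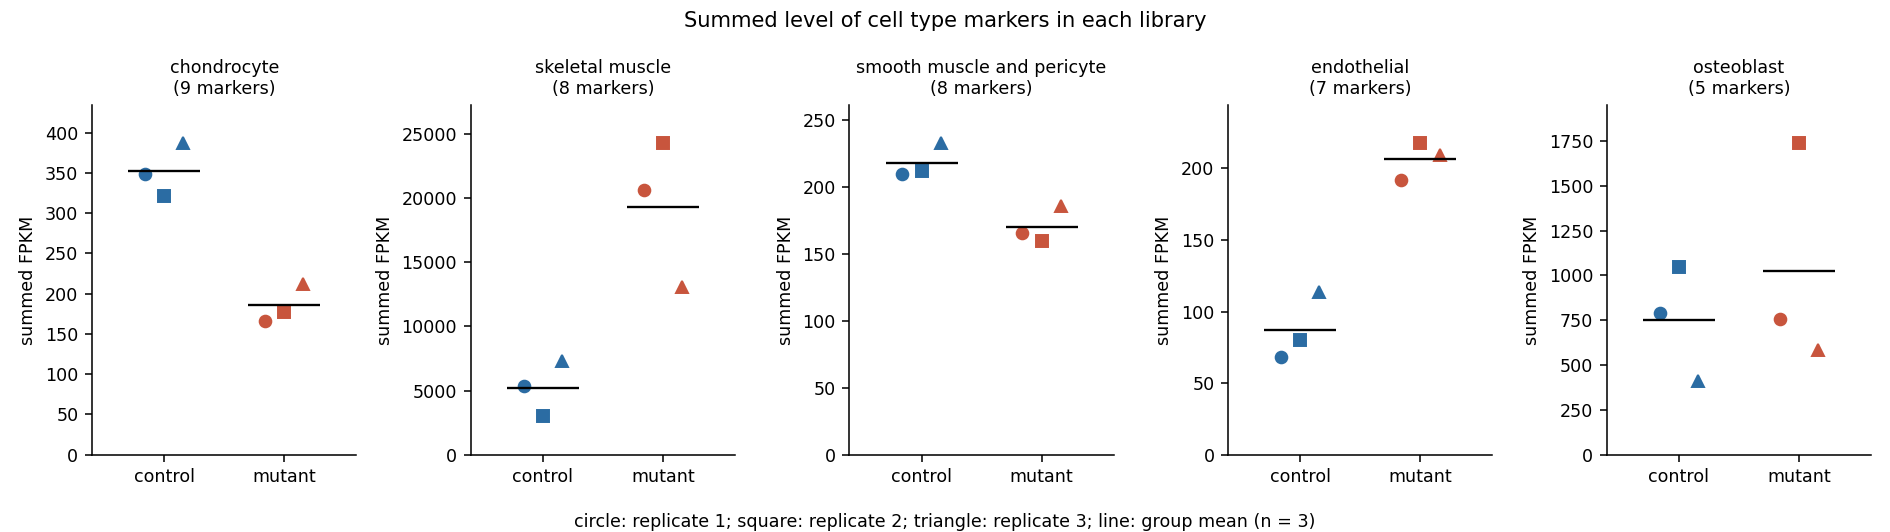
Summed FPKM of the markers of 5 cell types in each library, with the group mean. Endothelial and skeletal muscle sums are higher and chondrocyte sums are lower in all mutants. The smooth muscle and pericyte sum, in which Acta2 weighs most, is lower in all mutants although Rgs5, Pdgfrb and Mcam are higher. The osteoblast sum, in which Ibsp weighs most, is highest in mutant 2.

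The genes Lox (chromosome 18 from 52516067 to 52529867) and Fbn2 (chromosome 18 from 58008623 to 58210487), both on the minus strand, overlap exons of non-coding transcripts on the opposite strand, over 30 and 129 bases.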

How the data were processed

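Each of the 6 libraries had a table of 1 value per gene symbol, which the authors deposited as FPKM. The headers name no unit, and FPKM was inferred from the values and from Cufflinks. Per the submitters' processing notes, Cufflinks 2.2.1, TopHat2 2.0.13, SAMtools 0.1.19 and Bowtie2 2.2.3 and the build mm10 were used. No order or settings are given. Libraries came from SMART-Seq HT cDNA and Nextera kits, per the labels' protocols.

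A gene was tested where 3 or more libraries reached 1 FPKM. The test was limma 3.58.1 (R 4.3.3, trend and robust moderation, group as the only term) on log2(FPKM + 1), with a threshold of 0.05 on p-values adjusted over all genes tested. Shares and ratios were tested by exact permutation. Scripts were tested on simulated data. The members, the related genes and the markers were chosen with earlier results of these data known. Named were all members, related genes by smallest p (at most 4 in each direction), the 5 genes most like the member with the smallest p, and Ihh. Alternatives were quantile normalization, other filters, a pseudocount of 0.1, a replicate block and leaving out each library, and, chosen after the data were seen, covariates for Xist or muscle and leaving out controls 1 and 2. Lect1 and 3110079O15Rik stood for Cnmd and Snorc.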

Additional observations from a re-analysis of the deposited data

How the results depend on the processing

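The count of members with an adjusted p below 0.05 was 0 in the fit reported and 1 (Eln) with a filter at 5 FPKM, and 0 to 1 when each library was left out in turn. The count of related genes, 1 in the fit reported, was 0 to 2 with a library left out and 0 with Xist or the muscle mean as a covariate and with controls 1 and 2 left out. The count over all genes, 232, became 411 with quantile normalization, 133 without a filter and 440 with the filter at 5 FPKM, which tested fewer genes. It was 10 to 419 with 1 library left out, 2 with the Xist covariate and 2 with the muscle covariate, and the cause was not tested. Xist was high in controls 1 and 2 only, so its covariate leaves mainly control 3 to set against the mutants. That is nearly the comparison with controls 1 and 2 left out (Eln log2 fold change 1.14 and 1.11). The muscle covariate did not overlap between the groups. Of the 10 members 8 kept their sign in every alternative. The exceptions were Mfap5, at -1.47 with the muscle covariate, and Loxl4, at 0.0327 with the Xist covariate, 0.10 with controls 1 and 2 left out and -0.73 to 0.0271 with a library left out. The difference in the Loxl2 share, 0.989 percentage points, ranged from -3.35 to 5.27 with a library left out and was -2.84 in a sum without Lox. That of the fibrillin ratio kept its sign in all alternatives run.

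With the replicate number as a block, 2 genes passed over all genes, 0 members and 0 related genes (Postn, adjusted p = 0.0636, at an unchanged log2 fold change of -1.90). The labels do not say that numbers pair animals, and deviations of same-numbered libraries from their group means correlated at 0.006, -0.016 and -0.009, so the numbers were not taken as pairs. Loxl3 and Loxl4 had the fewest fragments in total of the 9 genes counted, with as few as 17 of Loxl4 in a library. Counting error was only part of the spread of Loxl4 in mutants (76.7%, where counting gives 20.0%).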
